A study of Mus musculus with 8 samples.

Results

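The 35 genes described here encode the glucose and lactate transporters, the enzymes of glycolysis and the enzymes of the pentose phosphate pathway. They were picked by gene symbol from the 35275 rows of the expression table of mouse lens fiber cells (FC), and each symbol matched 1 row. Of the 35 genes, 28 belong to glycolysis and lactate handling and 7 to the pentose phosphate pathway. RNA was sequenced from lens FC of cigarette smoke (CS)-exposed C57BL/6 mice and of untreated Ct mice of the same age, in 4 libraries per group. Each library came from a pool of FC of 4 right eyes, so a library shows a mean over mice and not the spread between them. The CS-exposed mice were born to dams already kept in a whole-body smoke chamber, and were exposed for 5 hours/day and 5 days/week over 3.5 months. The untreated Ct mice were housed in the animal facility for the same time without smoke. Neither group carried a transgene or a deletion, and both held male and female pools, which the labels do not tell apart.

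The lens fiber is a cell that loses its nucleus and mitochondria as it matures, and much of the lens lives on glucose turned into lactate. Glucose enters through facilitative transporters, is phosphorylated by hexokinase and committed to glycolysis by phosphofructokinase, and ends as pyruvate, which lactate dehydrogenase reduces to lactate. The pentose phosphate pathway branches off after hexokinase. Its oxidative arm yields NADPH, the reducing power that keeps glutathione reduced, and its non-oxidative arm returns sugars to glycolysis.

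Expression was given as FPKM, which scales the reads of a gene to its length and to the reads of the library, so that levels of different genes can be set side by side. From the size of single-read steps in low FPKM values, the depth of the libraries came to an estimated 18100000 to 23300000 fragments, with a median of 313 reads behind a value of a tested gene. The 9794 genes whose mean reached 1.0 FPKM in at least 1 of the groups were compared on log2(FPKM + 0.1) with limma. All 12 fiber cell markers, among them the lens fiber major intrinsic protein gene Mip and the beaded filament genes Bfsp1 and Bfsp2, had a mean of at least 1 FPKM. The summed FPKM of 9 lens epithelium markers lay between 45.9 and 116.6 per library and was highest in untreated Ct replicate 3, where 7 of the 9 were at their highest. The summed FPKM of 12 photoreceptor markers was 12.9 to 33.3 in untreated Ct mice and 37.4 to 111.8 in CS-exposed mice, without overlap, and the mean of all 12 was higher in CS-exposed mice. In pools of tissue, fewer cells of a type and less RNA per cell cannot be told apart.

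The genes of both pathways spanned a wide range of levels. Gapdh, the glyceraldehyde phosphate dehydrogenase, was the highest at 1153 ± 34.3 FPKM (SD, n = 8 libraries) and ranked 51 among all genes. It was followed by the aldolase Aldoa at 203.5 ± 7.56 FPKM, the pyruvate kinase Pkm at 185.3 ± 12.8 FPKM and the aldolase Aldoc at 161.6 ± 10.3 FPKM. In all 8 libraries these 4 genes kept that order, although the ranges of neighbours other than Gapdh and Aldoa overlapped. The transketolase Tkt (92.9 FPKM), the enolase Eno1 (89.0 FPKM), the phosphoglycerate kinase Pgk1 (86.2 FPKM) and the triosephosphate isomerase Tpi1 (81.2 FPKM) came next, with overlapping ranges. A mean of at least 10 FPKM was found for 17 of the 35 genes, and a mean below 1 FPKM in both groups for 6. These 6 genes, Slc2a3, Pfkfb1, Pfkfb4, Slc16a1, Ldhb and Rpia, did not enter the limma comparison, which left 29 genes.

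**Figure D1:**
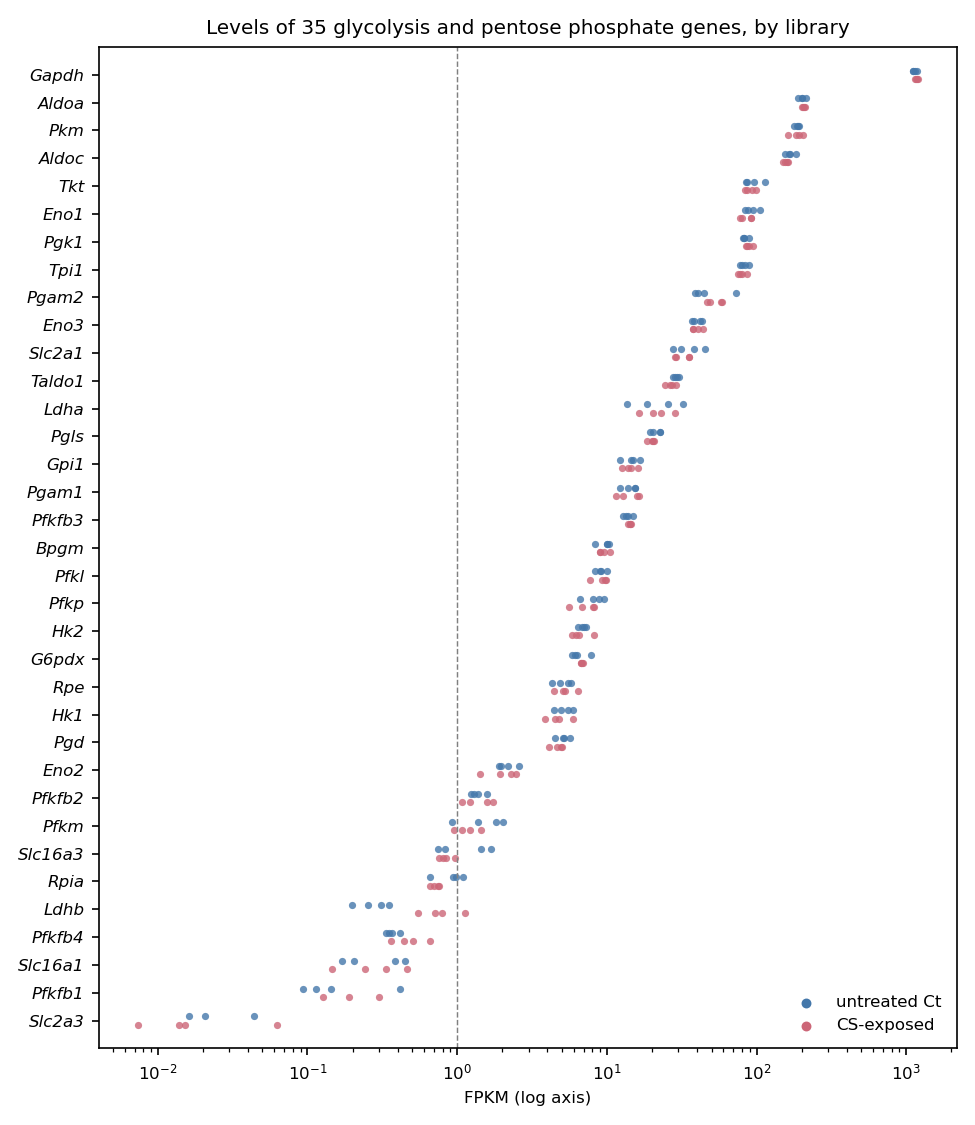
FPKM (log axis) of the 35 genes in each of the 8 libraries, ordered by mean level, with untreated Ct mice in blue and CS-exposed mice in red. The dashed line marks 1 FPKM, and values of 0 (Slc2a3 in untreated Ct replicate 1 and Pfkfb1 in CS-exposed replicate 2) are not drawn. Gapdh stands apart at the top, and Ldhb is the gene whose red points all lie to the right of its blue points.

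None of the 29 genes tested passed an unadjusted p value under 0.05 between CS-exposed and untreated Ct mice, where 4.83% of all genes tested did (limma). None had groups without overlap, as 3.08% of all genes tested did. None passed after Benjamini-Hochberg adjustment, where 0.0102% of all genes did, and the adjusted p values of the 29 genes lay between 0.956 and 0.997. The smallest unadjusted p value was 0.0776, for Aldoc. The fold change was below 0 for 20 genes and above 0 for 9, so that 69.0% were below 0, beside 48.8% of all genes tested. The median log2 fold change was -0.033, beside 0.0043 over all genes tested. Of the 9 lens epithelium markers, 8 also had a lower mean in CS-exposed mice, with a mean log2 difference of -0.34, and their part in the split of the 29 genes was not tested. The median size of the change without its sign was 0.058 on the log2 scale, beside 0.084 over all genes. For 27 of the 29 genes the 95% interval of the difference lay within 1.5-fold in either direction, as it did for 79.0% of all genes, and for 14 it lay within 1.2-fold, as for 27.0% of all genes. The 2 genes with wider intervals were the phosphofructokinase Pfkm and the lactate transporter Slc16a3, both near 1 FPKM. Slc16a3 passed the minimum only through its level in untreated Ct mice. The sizes and intervals over all genes were not matched for level, and the spread within groups was smaller at high levels. Genes at a level like that of Gapdh had a median SD of 0.0554 on the log2 scale, and those like Pfkfb2 0.293.

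**Figure D2:**
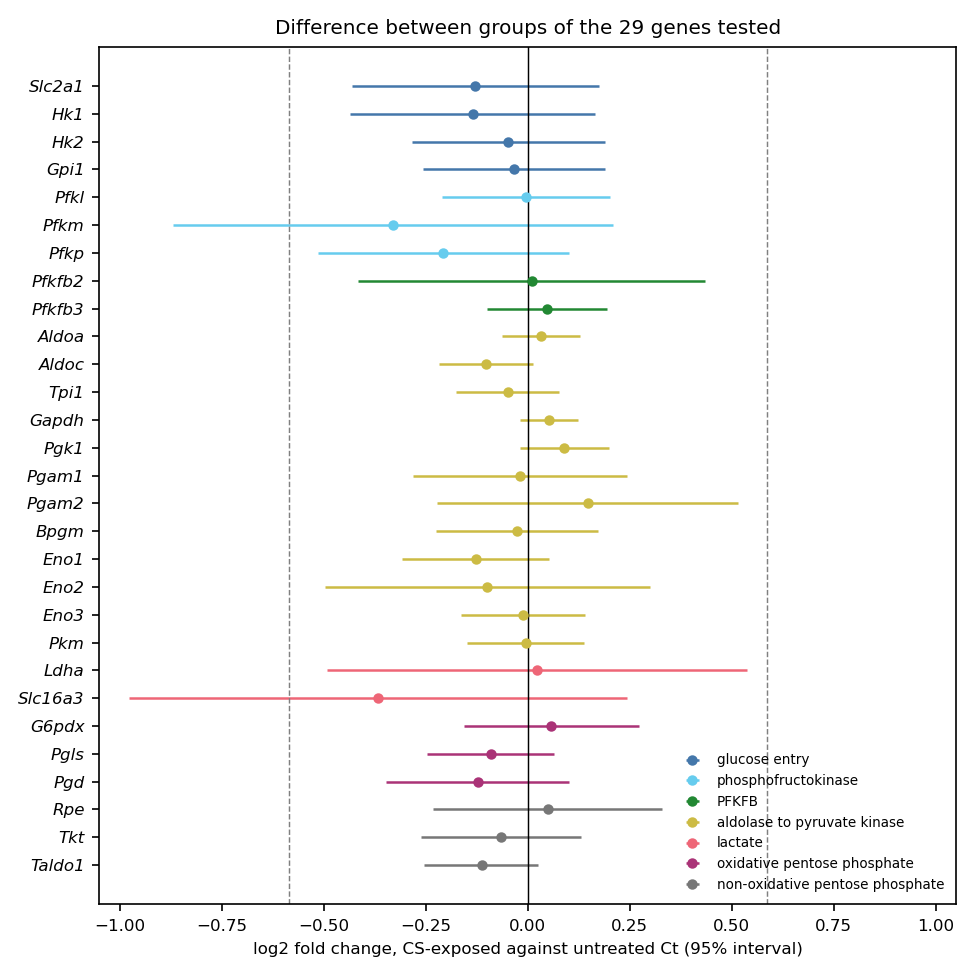
Log2 fold change of the 29 genes tested, CS-exposed against untreated Ct mice, with the 95% interval of the limma fit and colours by step of the pathway. Dashed lines mark 1.5-fold in either direction. All 29 intervals include 0, and those of Pfkm and Slc16a3 reach past the dashed line.

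Of the RNA of Slc2a1 and Slc2a3, nearly all was Slc2a1, the gene of the transporter that brings glucose across the plasma membrane of many tissues. Slc2a8 and Slc2a12, sugar transporters outside the 35 genes, stood at 2.70 and 0.868 FPKM over the 8 libraries. Slc2a1 (chromosome 4 of GRCm38, from 119108711 to 119137983) was 31.1, 38.2, 44.9 and 27.4 FPKM in untreated Ct replicates 1 to 4 and 28.96, 35.5, 35.2 and 28.4 FPKM in CS-exposed replicates 1 to 4. Its highest and its lowest value were both in untreated Ct libraries, so the CS-exposed libraries lay inside the untreated range. The log2 fold change was -0.13 ± 0.14 (SE), with an unadjusted p of 0.372 and an adjusted p of 0.981 in limma. It was -0.0055 without untreated Ct replicate 3 and -0.24 without untreated Ct replicate 4, the ends of its range over the alternatives. Slc2a3, the transporter typical of neurons, was the lowest of the 35 genes. It was listed at 0, 0.0162, 0.0206 and 0.0442 FPKM in untreated Ct mice and at 0.0152, 0.0139, 0.0623 and 0.00739 FPKM in CS-exposed mice, which rested on 0 to 8 reads per library. It took under 0.2% of the summed FPKM of the pair in every library, and no difference was detectable at this depth.

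The hexokinases phosphorylate glucose and hold it in the cell. Hk1 (chromosome 10, from 62268855 to 62379908) was 5.54, 4.97, 5.91 and 4.42 FPKM in untreated Ct mice and 4.47, 4.81, 5.92 and 3.85 FPKM in CS-exposed mice. Hk2 (chromosome 6, from 82725025 to 82774454), the form known as insulin-responsive in muscle and fat, was 6.78, 7.06, 6.45 and 7.21 FPKM in untreated Ct mice and 5.83, 8.22, 6.20 and 6.55 FPKM in CS-exposed mice. Hk2 exceeded Hk1 in all 8 libraries, with 57.0 ± 4.28% of their summed FPKM in untreated Ct mice and 58.5 ± 5.75% in CS-exposed mice (SD, n = 4). The log2 fold change was -0.14 ± 0.14 (SE) for Hk1 and -0.047 ± 0.11 for Hk2, with an adjusted p of 0.976 and 0.989 in limma. That of Hk1 ran from -0.24 without CS-exposed replicate 3 to -0.041 without CS-exposed replicate 4. Gpi1, the isomerase that turns glucose phosphate into fructose phosphate, was 14.6 ± 1.84 FPKM in untreated Ct mice and 14.2 ± 1.41 FPKM in CS-exposed mice.

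Phosphofructokinase, the committed step of glycolysis, is built from liver, muscle and platelet subunits. The liver subunit Pfkl (chromosome 10, from 77986947 to 78010083) was 8.39, 9.11, 9.997 and 8.99 FPKM in untreated Ct mice and 9.22, 9.81, 9.69 and 7.75 FPKM in CS-exposed mice. The platelet subunit Pfkp (chromosome 13, from 6579768 to 6648777) was 8.08, 9.53, 8.92 and 6.64 FPKM in untreated Ct mice and 5.59, 8.24, 8.08 and 6.84 FPKM in CS-exposed mice. The muscle subunit Pfkm (chromosome 15, from 98092589 to 98132451) was low, at 0.925, 1.81, 2.03 and 1.38 FPKM in untreated Ct mice and 1.07, 1.22, 1.44 and 0.947 FPKM in CS-exposed mice. Groups overlapped for all 3 subunits. Pfkl took 48.3 ± 3.42% of the summed FPKM in untreated Ct mice and 52.3 ± 3.85% in CS-exposed mice, Pfkp 43.7 ± 3.61% and 41.0 ± 3.96%, and Pfkm 7.999 ± 1.90% and 6.66 ± 0.611% (SD, n = 4). The log2 fold change was -0.0040 ± 0.094 (SE) for Pfkl, -0.21 ± 0.14 for Pfkp and -0.33 ± 0.25 for Pfkm. Their unadjusted p values in limma were 0.967, 0.167 and 0.207, and the adjusted ones 0.997, 0.956 and 0.956. Without untreated Ct replicate 1 the log2 fold change of Pfkm was -0.54 with an unadjusted limma p of 0.0308. Without untreated Ct replicate 4 that of Pfkp was -0.31 with an unadjusted limma p of 0.0454. The other ends of their ranges over the alternatives were -0.185 for Pfkm and -0.094 for Pfkp. Pfkp shares 748 exon bases with Pitrm1 on the opposite strand, and whether reads were counted by strand is not stated, so part of its reads could belong to the neighbour.

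The PFKFB enzymes make and break the fructose bisphosphate that switches phosphofructokinase on. Pfkfb3, the form with the strongest kinase activity, stood at 13.7 ± 0.843 FPKM in untreated Ct mice and 14.2 ± 0.319 FPKM in CS-exposed mice (SD, n = 4). It took 87.7 ± 1.18% and 87.4 ± 1.48% of the summed FPKM of the 4 genes. Pfkfb2, known from heart, was at 1.37 ± 0.148 and 1.40 ± 0.310 FPKM, and shares 1262 exon bases with Gm29427 on the same strand. Pfkfb4 was at 0.367 ± 0.0341 and 0.491 ± 0.126 FPKM, with 21 to 50 reads per library and overlapping groups (two-sided exact permutation test, p = 0.0857). Pfkfb1, the liver form, was at 0 to 0.412 FPKM.

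The shares of isozymes overlapped between the groups in every family other than lactate dehydrogenase. Of the muscle-type forms, Pgam2 and Eno3 were high in lens FC and Pfkm was low. Pgam2, the muscle form of phosphoglycerate mutase, took 76.7 ± 5.33% of the summed FPKM of Pgam1 and Pgam2 in untreated Ct mice and 78.7 ± 4.75% in CS-exposed mice (SD, n = 4). Eno3, the muscle enolase, took 29.8 ± 2.45% and 31.5 ± 1.93% of the summed enolase FPKM, beside 68.6 ± 2.34% and 66.9 ± 1.94% for the widespread form Eno1. The neuronal form Eno2 remained under 2% in every library. Aldoc, known as the brain aldolase, took 45.4 ± 1.71% of the summed FPKM of Aldoa and Aldoc in untreated Ct mice and 43.1 ± 0.876% in CS-exposed mice, and the groups overlapped.

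**Figure D3:**
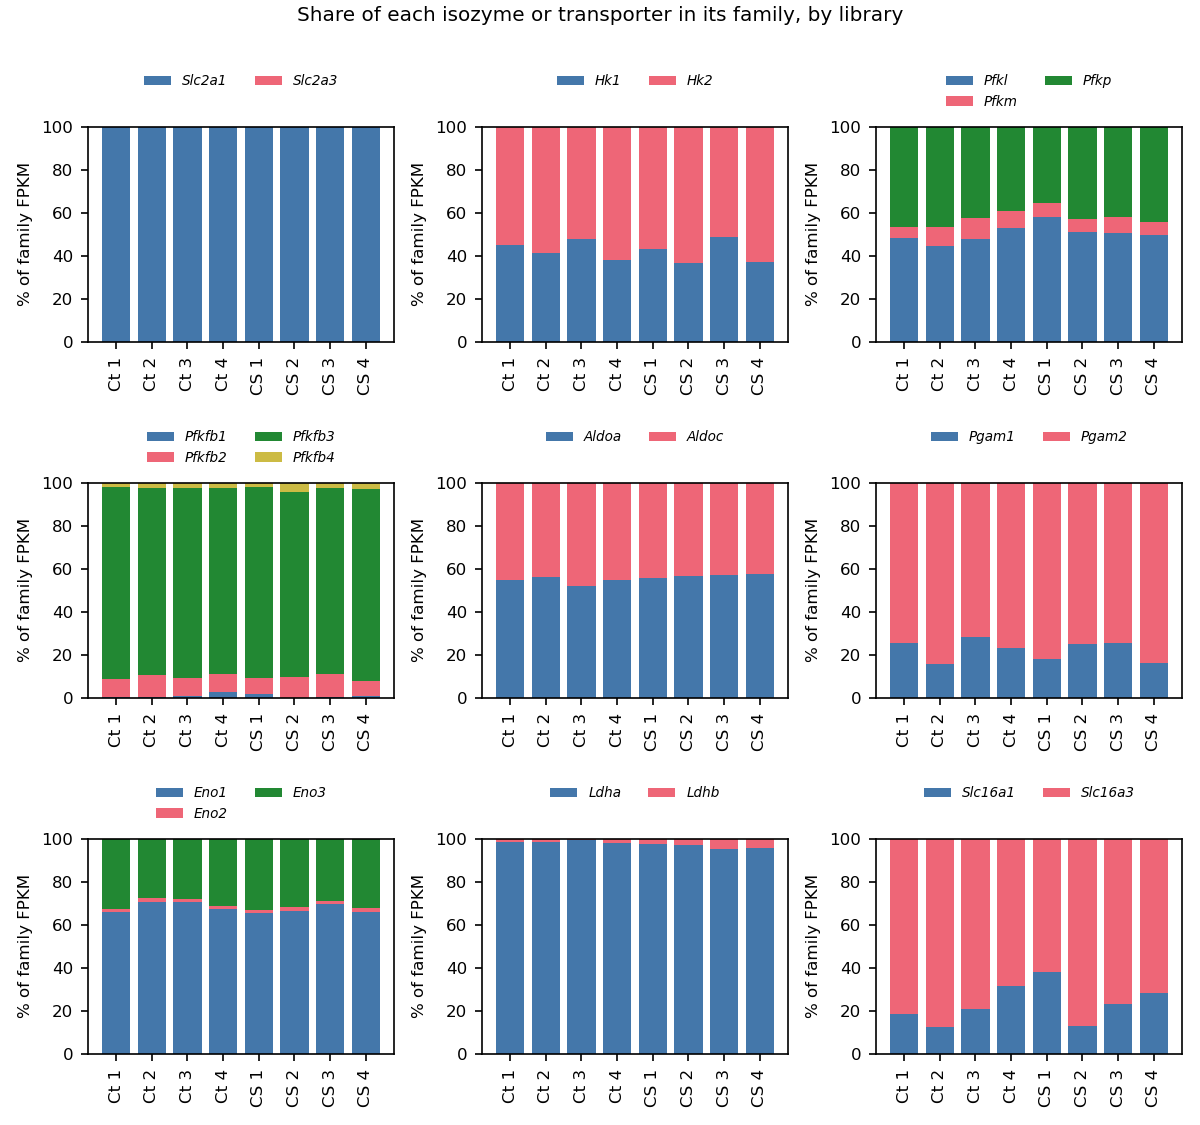
Share of each gene in the summed FPKM of its family (percent, stacked bars) in each of the 8 libraries, untreated Ct replicates 1 to 4 on the left of each panel and CS-exposed replicates 1 to 4 on the right. Slc2a1, Pfkfb3 and Ldha make up most of their families in every library, and the lactate dehydrogenase panel is the only one in which the 2 groups do not overlap.

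Between aldolase and pyruvate kinase, Gapdh (chromosome 6, from 125161715 to 125166467) was 1138, 1176, 1106 and 1110 FPKM in untreated Ct mice and 1145, 1187, 1197 and 1169 FPKM in CS-exposed mice. A CS-exposed library was the highest, and only untreated Ct replicate 2 reached into the CS-exposed range. The log2 fold change was 0.053 ± 0.033 (SE), with an unadjusted p of 0.132 and an adjusted p of 0.956 in limma and a two-sided exact permutation p of 0.0857. Over the alternatives it ran from 0.015 with quantile normalization to 0.071 without untreated Ct replicate 2. Gapdh, a gene commonly taken as a reference for expression, also had the smallest spread of the 29 genes within groups, with an SD of 0.035 on the log2 scale. It alone made up 51.9 ± 1.33% of the summed FPKM of the 28 glycolysis genes in untreated Ct mice and 53.2 ± 1.19% in CS-exposed mice.

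Aldoc was 165.1, 166.5, 182.7 and 155.4 FPKM in untreated Ct mice and 159.0, 161.4, 153.7 and 149.2 FPKM in CS-exposed mice. Its log2 fold change was -0.10 ± 0.053 (SE), with an adjusted limma p of 0.956. Without untreated Ct replicate 4 its log2 fold change was -0.14 with an unadjusted limma p of 0.0254, and with limma-voom on recovered reads it was -0.11 with an unadjusted limma p of 0.0396. Neither passed after adjustment, and the weakest value of Aldoc over the alternatives was -0.052. Pgk1, which makes the first ATP of the payoff phase, was 82.5, 88.6, 80.5 and 82.4 FPKM in untreated Ct mice and 88.9, 94.5, 86.7 and 85.3 FPKM in CS-exposed mice. Its log2 fold change was 0.089 ± 0.050 (SE, unadjusted p = 0.0998, adjusted p = 0.956, limma), and 0.12 with an unadjusted p of 0.0452 without untreated Ct replicate 2. The other end of the range of Pgk1 over the alternatives was 0.059. Pgam2 was 44.4, 72.9, 38.8 and 40.9 FPKM in untreated Ct mice and 58.1, 48.8, 46.3 and 58.7 FPKM in CS-exposed mice. The untreated Ct replicate 2 was the highest of all 8 libraries, while the other 3 untreated libraries lay below every CS-exposed library. Over all libraries the log2 fold change was 0.15 ± 0.17 (SE) with an adjusted limma p of 0.985. Without untreated Ct replicate 2, the library that broke the separation, it was 0.35 with an unadjusted limma p of 0.00317. In that setting 493 of all genes tested were under 0.05, and none of the genes described here passed after adjustment. The other end of the range of Pgam2 over the alternatives was 0.049. Eno1 was 93.0 ± 9.88 FPKM in untreated Ct mice and 85.0 ± 7.74 FPKM in CS-exposed mice, with a log2 fold change of -0.13 ± 0.082 (SE, adjusted p = 0.956, limma). Pkm, the pyruvate kinase that releases the last ATP, stood at 185.3 ± 5.75 FPKM and 185.3 ± 18.7 FPKM (SD, n = 4). Aldoa, Tpi1, Pgam1, Eno2, Eno3 and Bpgm, whose product sets the level of bisphosphoglycerate, had log2 fold changes between -0.099 and 0.032.

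Lactate dehydrogenase was mostly Ldha, the form suited to making lactate from pyruvate. Ldha (chromosome 7, from 46841475 to 46855627) was 18.4, 25.5, 32.2 and 13.6 FPKM in untreated Ct mice and 20.3, 28.6, 22.9 and 16.4 FPKM in CS-exposed mice. The untreated Ct libraries held both its highest and its lowest value. The log2 fold change was 0.022 ± 0.23 (SE), with an adjusted p of 0.995 in limma, and its 95% interval ran from -0.49 to 0.54. Within groups the SD of Ldha was 0.448 on the log2 scale, where the median over 863 genes of like level was 0.104.

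Ldhb (chromosome 6, from 142490249 to 142507957), the heart form suited to using lactate, was the only one of the 35 genes whose groups did not overlap. It was 0.309, 0.350, 0.198 and 0.254 FPKM in untreated Ct mice and 0.545, 0.797, 1.12 and 0.709 FPKM in CS-exposed mice. Every CS-exposed library was higher than every untreated Ct library, which held for genes in either direction in 2.26% of the 21019 genes above 0 in any library. The mean was 0.278 ± 0.0659 FPKM in untreated Ct mice and 0.793 ± 0.242 FPKM in CS-exposed mice (SD, n = 4), a 2.86-fold higher value. The two-sided exact permutation p of 0.0286 is the smallest that 4 against 4 libraries can give, and it was not adjusted for the 35 genes. With no minimum FPKM the limma p was 0.00247, under 0.05 as in 4.1% of 21019 genes, and the adjusted p was 0.906. With a minimum of 0.5 FPKM, which Ldhb reached only through its level in CS-exposed mice, the unadjusted limma p was 0.00329, under 0.05 as in 4.8% of 11358 genes, and this adds no support. The values rested on few reads, 29 in all in untreated Ct mice and 89 in CS-exposed mice, between 6 and 30 per library. Ldhb took 1.36 ± 0.537% of the summed FPKM of Ldha and Ldhb in untreated Ct mice and 3.53 ± 1.03% in CS-exposed mice, again without overlap. Ldhb and the summed photoreceptor markers were both highest in CS-exposed replicate 3 and both without overlap between groups. The 8 pigment epithelium markers summed to 1.75 to 3.16 FPKM in untreated Ct mice and 3.11 to 25.9 FPKM in CS-exposed mice, with Best1 at 0 in every library. The part of these cell types in the Ldhb result was not tested.

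**Figure D4:**
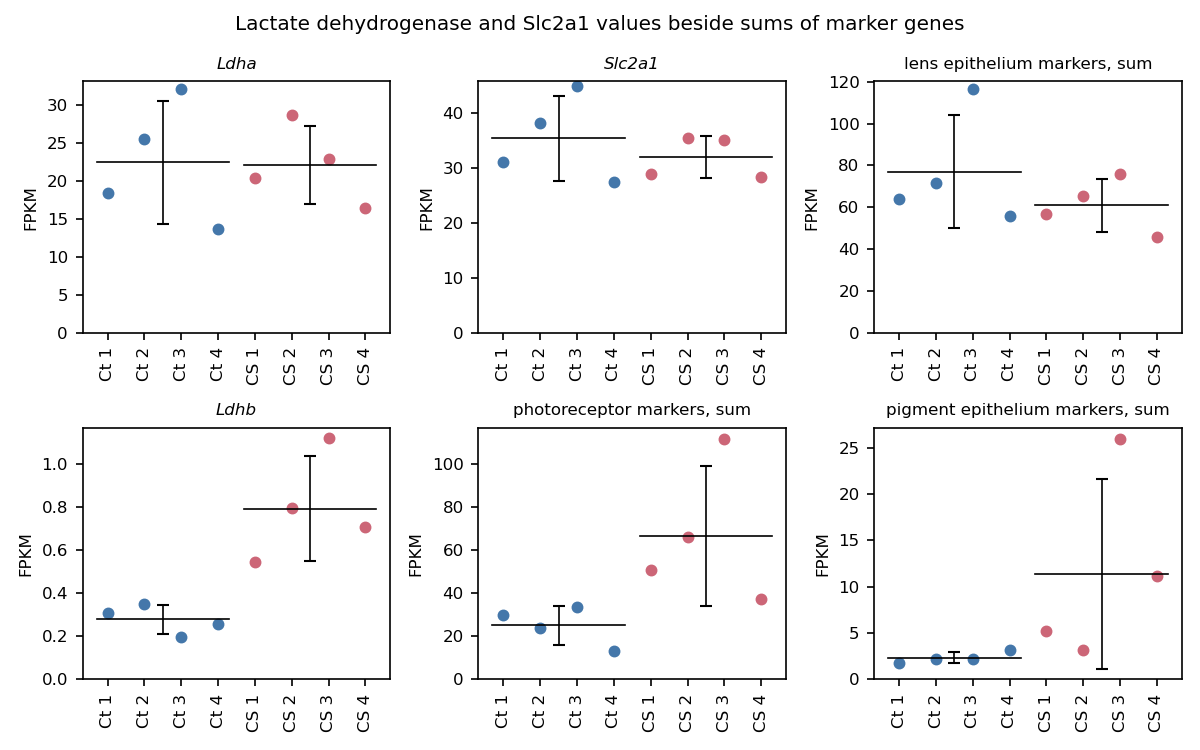
FPKM of Ldha, Slc2a1 and Ldhb, and the summed FPKM of lens epithelium, photoreceptor and pigment epithelium markers, in each of the 8 libraries, with horizontal lines at the mean of each group and bars of 1 SD (n = 4). Ldha, Slc2a1 and the epithelium sum are all highest in untreated Ct replicate 3, while Ldhb and the photoreceptor sum are higher in each CS-exposed library than in any untreated one.

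The promoter of Ldhb is shown as that of the gene whose libraries separated, and those of Pgam2 and Eno3 as those of the muscle-type isozymes with high levels in lens FC. Each is the 250 bases before the RefSeq start of the gene (GRCm38.p6), 5′ to 3′ on the strand of the gene, with matches to GCGTG, on either strand, in capitals. The Ldhb window is chr6:142507958-142508207 (minus strand), that of Pgam2 is chr11:5803797-5804046 (minus strand) and that of Eno3 is chr11:70656926-70657175 (plus strand).
Ldhb: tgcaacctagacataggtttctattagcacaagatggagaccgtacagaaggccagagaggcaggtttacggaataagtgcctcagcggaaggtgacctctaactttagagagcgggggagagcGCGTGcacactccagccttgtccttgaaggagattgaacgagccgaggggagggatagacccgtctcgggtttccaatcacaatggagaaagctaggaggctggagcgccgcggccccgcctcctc
Pgam2: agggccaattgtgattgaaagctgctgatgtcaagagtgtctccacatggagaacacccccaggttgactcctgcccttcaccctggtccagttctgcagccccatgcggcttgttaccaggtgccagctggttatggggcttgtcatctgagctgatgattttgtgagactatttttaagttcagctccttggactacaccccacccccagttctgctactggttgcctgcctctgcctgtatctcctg
Eno3: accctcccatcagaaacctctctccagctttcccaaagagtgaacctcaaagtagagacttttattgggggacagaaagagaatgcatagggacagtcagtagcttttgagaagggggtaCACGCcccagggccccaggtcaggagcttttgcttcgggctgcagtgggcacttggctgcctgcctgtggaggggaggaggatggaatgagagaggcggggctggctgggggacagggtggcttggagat
GCGTG is the core bound by the aryl hydrocarbon receptor, a receptor for aromatic compounds, and it is also a core of hypoxia response elements, as is ACGTG. Windows were found for 34 of the 35 genes, 52 windows in all, since some genes have several starts. GCGTG was found on either strand in 28 of the 52 windows (53.8%) and in 28.2% of 32851 windows of all genes. ACGTG, searched likewise, was found in 16 of 52 windows (30.8%) and in 16.6% of all windows. TGACNNNGC, the core of antioxidant response elements, was found in 4 windows (7.69%), beside 10.2% of all, and TGCTGAC, a half-site of Maf factors, in 2 (3.85%), beside 3.81% of all. GCGTG and ACGTG both hold a CG pair, and the windows of all genes were not matched for base content. The part of base content in the higher shares was not tested. The matches are matches of letters, and no binding was measured here.

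Lactate leaves cells through proton-linked transporters. Slc16a3, the form of glycolytic tissues, was 0.743, 1.44, 1.68 and 0.8287 FPKM in untreated Ct mice and 0.754, 0.969, 0.798 and 0.842 FPKM in CS-exposed mice. Its log2 fold change was -0.37 ± 0.28 (SE), with an adjusted p of 0.956 in limma, and over the alternatives it ran from -0.54 without untreated Ct replicate 1 to -0.16 without both replicates 3. Slc16a1, the widespread form, was at 0.147 to 0.460 FPKM with 15 to 46 reads per library. Bsg, the gene of the chaperone that carries both transporters to the membrane, was far higher, at 145 FPKM over the 8 libraries. The embigin gene Emb was at 37.1 FPKM.

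In the oxidative arm of the pentose phosphate pathway, G6pdx (X chromosome, from 74409483 to 74429194), the rate-limiting dehydrogenase, was 5.84, 7.83, 6.11 and 6.36 FPKM in untreated Ct mice and 6.83, 6.68, 6.67 and 6.88 FPKM in CS-exposed mice. Pgls (chromosome 8, from 71592176 to 71601092), the lactonase of the next step, was 20.2, 19.5, 22.8 and 22.6 FPKM in untreated Ct mice and 19.9, 18.6, 20.8 and 20.4 FPKM in CS-exposed mice. Pgd (chromosome 4, from 149149991 to 149166771), which yields the other NADPH, was 5.08, 5.17, 5.69 and 4.54 FPKM in untreated Ct mice and 4.93, 5.04, 4.65 and 4.13 FPKM in CS-exposed mice. Groups overlapped for all 3 genes. The log2 fold change was 0.058 ± 0.098 (SE) for G6pdx, -0.091 ± 0.071 for Pgls and -0.12 ± 0.10 for Pgd, with adjusted limma p values of 0.985, 0.956 and 0.962. The CS-exposed libraries of G6pdx lay close together (SD 0.108 FPKM), below untreated Ct replicate 2 and above the other 3 untreated Ct libraries. Without that library the log2 fold change of G6pdx was 0.15 with an unadjusted limma p of 0.114. G6pdx shares 418 exon bases with Ikbkg on the opposite strand and Pgls 776 with Fam129c on the same strand.

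In the non-oxidative arm, Tkt was 85.4, 96.0, 113.6 and 85.8 FPKM in untreated Ct mice and 83.3, 92.6, 99.8 and 86.5 FPKM in CS-exposed mice. It made up 58.2 ± 2.52% and 58.5 ± 1.40% of the summed FPKM of the 7 pentose phosphate genes. Taldo1, the transaldolase that works beside it, was 29.01 ± 1.04 FPKM in untreated Ct mice and 26.9 ± 1.87 FPKM in CS-exposed mice (SD, n = 4). Its log2 fold change was -0.11 ± 0.064 (SE, unadjusted p = 0.102, adjusted p = 0.956, limma), and -0.15 with an unadjusted p of 0.0421 without CS-exposed replicate 3. The other end of its range over the alternatives was -0.069. The epimerase gene Rpe was 5.09 ± 0.656 and 5.28 ± 0.814 FPKM, and shares 558 exon bases with Kansl1l on the opposite strand. The isomerase gene Rpia, at 0.920 ± 0.184 and 0.715 ± 0.0463 FPKM with overlapping groups, was below the minimum for the limma comparison (two-sided exact permutation test, p = 0.114). Summed over genes, the pentose phosphate pathway stood at 163.1 ± 15.6 FPKM in untreated Ct mice and 154.8 ± 8.83 FPKM in CS-exposed mice, and the 28 glycolysis genes at 2182 ± 85.1 and 2209 ± 63.6 FPKM. Both differences were smaller than the spread between libraries.

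For 25 of the 29 genes tested the difference between groups was smaller than the SD between libraries of a group. The same share was not counted over all genes tested, so it does not set these genes apart. Untreated Ct replicate 3 held the highest value of 13 of the 29 genes tested (44.8%), beside 16.8% of all genes tested, and these 13 included Slc2a1, Pfkm, Eno1, Ldha, Tkt and Pgd. CS-exposed replicate 4 held the lowest value of 8 genes (27.6%), beside 16.5% of all. For Slc2a1 the SD within groups was 0.254 on the log2 scale, where genes of like level had a median of 0.0923, for Pgam2 0.319 where they had 0.0834, and for Tkt 0.159 where they had 0.0764. Other genes lay below that median, such as Pfkfb3 at 0.0655 beside 0.12 and Gapdh at 0.0351 beside 0.0554. The summed lens epithelium markers were 63.8, 71.8, 116.6 and 56.0 FPKM in untreated Ct replicates 1 to 4 and 56.6, 65.5, 75.7 and 45.9 FPKM in CS-exposed replicates 1 to 4. They were thus highest in the library that held the highest value of 13 of these genes and lowest in CS-exposed replicate 4, and their part in this spread was not tested. With untreated Ct replicate 3 and CS-exposed replicate 3 left out, a choice made after seeing the data, none of the genes passed an unadjusted p of 0.05 in limma, where 433 of all genes tested did. Xist, the RNA of the inactive X chromosome, was at most 0.0113 FPKM in replicates 1 and 2 of both groups and 41.1 to 49.0 FPKM in replicates 3 and 4. Libraries with the same number thus had a like Xist level in both groups. The paper names 2 male and 2 female replicates per group, and by Xist replicates 1 and 2 were the male pools and replicates 3 and 4 the female ones. The comparison of groups did not use the sex of the pools. Of the X-linked genes, Pgk1 was higher in replicates 1 and 2 than in replicates 3 and 4 within each group, while G6pdx overlapped between them within each group.

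**Figure D5:**
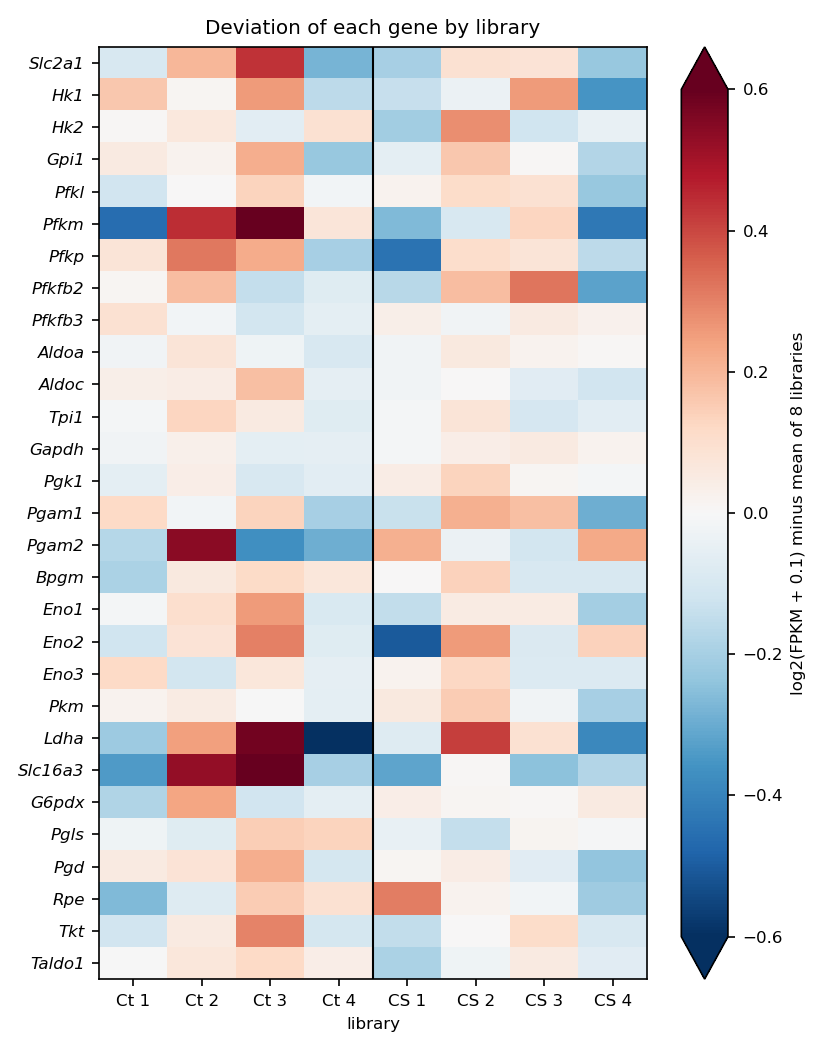
Deviation of each of the 29 genes tested from its mean over the 8 libraries, on the log2(FPKM + 0.1) scale, with red above and blue below the mean and the scale limited to 0.6 in either direction. The column of untreated Ct replicate 3 is the reddest, with Slc2a1, Pfkm, Ldha and Slc16a3 the deepest, and Gapdh is nearly flat across all libraries.

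Beyond the 35 genes, 51 others of glucose metabolism were looked at, of which 50 were listed and 26 reached the minimum FPKM. None of the 26 passed an unadjusted p of 0.05 in limma, where 4.83% of all genes tested did. After Bsg and Emb the highest were the glycerol phosphate dehydrogenases Gpd1 (28.2 FPKM) and Gpd1l (23.3 FPKM) and the pyruvate dehydrogenase subunit Pdhb (17.2 FPKM), with log2 fold changes between 0.0028 and 0.057 for these 5. The gluconeogenesis genes Pck1, G6pc and Fbp1 and the insulin-responsive transporter Slc2a4 were listed at 0 in every library. The related genes G6pc3 and Pck2 stood at 16.0 and 0.532 FPKM over the 8 libraries, and Fbp2 at 0 to 0.0649 FPKM. Of the close copies of the enzyme genes, Gapdhs was at 0.386 to 1.62 FPKM, Eno1b at 0.0288 to 0.294 FPKM, Eno4 at 0 to 0.512 FPKM and Pgam1-ps2 at 0 to 0.592 FPKM. Ldha-ps and Ldha-ps2 summed to 0 to 0.507 FPKM. G6pd2 and Pgk2 were above 0 in 1 library each. Reads that could lie in Gapdh, Eno1, Pgam1 or Ldha and in these copies cannot be told apart here.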

How the data were processed

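RNA-Seq of lens FC was analysed from 4 libraries of CS-exposed and 4 of untreated Ct mice. Per the labels, paired 150-base reads were mapped to GRCm38 by the authors with STAR 2.5 and assigned to genes with HTSeq 0.6.1, and FPKM per library were deposited. The annotation release and the strand setting are not given in the sources used here. Group means and the authors' own fold changes and p-values fill 5 further columns of the table and were not used.

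Groups were taken from the labels. Genes whose mean deposited FPKM reached 1.0 in at least 1 group were fitted on log2(FPKM + 0.1) with limma 3.58.1 (R 4.3.3), with a variance trend, two-sided, and adjusted by Benjamini-Hochberg over all 9794 genes. Changes of low genes come out too small on this scale. Single genes were also compared over all 70 assignments of the libraries (exact permutation test, smallest p 0.029). Sums and shares were not tested. Whole reads were recovered for 9771 of the 9794 genes (99.8%, within 0.05 reads) and served for limma-voom as an alternative. The fit was tested on simulated data. Coordinates are from GENCODE for GRCm38 and promoters from RefSeq (GRCm38.p6). All else was done in Python 3.11.15 (scipy 1.17.1, pandas 2.3.3, numpy 2.4.6, matplotlib 3.10.9).

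The genes and lists were chosen with earlier results of these data known. Described with every library were genes under an unadjusted p of 0.05, genes whose groups did not overlap, the entry and committed steps, the oxidative pentose phosphate genes, Gapdh, Ldha, Ldhb and the highest and lowest gene. Aldoc, Pgk1, Pgam2, Slc16a3 and Tkt were added after their values were seen. Other genes of glucose metabolism were named among the 5 highest, and Slc2a8, Slc2a12, Slc2a4, Pck1, Pck2, G6pc, G6pc3, Fbp1 and Fbp2 after their values were seen. A result on 1 gene is not reported here. Erythrocyte markers summed to 0.265 to 1.73 FPKM in untreated Ct mice and 0.500 to 22.8 FPKM in CS-exposed mice, and leukocyte and endothelium markers to 0.231 to 0.889 FPKM over all libraries. Alternatives were pseudocounts of 1 and 0.01, minimum FPKM of 0.5, 5 or none, median centring, quantile normalization, rescaling without crystallins, no or a robust variance trend, a replicate block, leaving out each library, and limma-voom. The labels call the pools biological replicates.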

Additional observations from a re-analysis of the deposited data

Results flagged for a closer look

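Of 74 groups of 4 libraries examined for a single distant value, 3 held a library whose gap to the nearest of the others exceeded Dixon's 95% critical value for 4 values, where chance gives about 3.7. Pgam2 was 72.9 FPKM in untreated Ct replicate 2 and 38.8 to 44.4 FPKM in the other untreated Ct libraries. Pfkfb1 was 0.412 FPKM in untreated Ct replicate 4 and 0.0938 to 0.144 FPKM in the others of that group. Slc2a3 was 0.0623 FPKM in CS-exposed replicate 3 and 0.00739 to 0.0152 FPKM in the others. The values of Pfkfb1 and Slc2a3 rested on at most 20 and 8 reads per library.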

How the results depend on the processing

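The count of glycolysis and pentose phosphate genes under an unadjusted p of 0.05, 0 as reported, became 1 with a minimum of 0.5 FPKM or none (Ldhb, which reached 0.5 FPKM only through CS-exposed mice), and 1 with limma-voom (Aldoc), and lay between 0 and 2 when single libraries were left out. After adjustment it was 0 in every alternative run. Over all genes, the unadjusted count of 473 became 226 with a minimum of 5 FPKM and 862 with none. The adjusted count of 1 became 0 with no minimum and with no variance trend, 2 with limma-voom and 2 without both replicates 3 (chosen after seeing the data), and 0 to 1 when single libraries were left out. Of 605 values of single genes under alternatives, 557 kept their direction and side of the threshold, 8 newly passed an unadjusted p of 0.05, and 40, from 12 genes, changed sign.

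The replicate number as a block gave 1 gene of the 35 (Eno1, log2 fold change -0.13, unadjusted limma p of 0.0308), 522 genes in all under an unadjusted p of 0.05, and 5 after adjustment. Deviations of same-numbered libraries from their group means correlated at 0.012, 0.0777, 0.111 and 0.161, so the numbers were not taken to pair the libraries. Untreated Ct replicates 2, 3 and 4 each correlated best with their own number among the CS-exposed libraries, and replicate 1 with replicate 4 (0.0498). Same-numbered libraries had a like Xist level, which the block takes into account.

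Log2 fold changes that changed sign when a library, or both replicates 3, were left out ranged from -0.15 to 0.015 for Hk2, -0.12 to 0.035 for Gpi1, -0.043 to 0.071 for Pfkl, -0.14 to 0.12 for Pfkfb2, -0.091 to 0.077 for Pgam1, -0.094 to 0.035 for Bpgm, -0.20 to 0.053 for Eno2, -0.055 to 0.035 for Eno3, -0.057 to 0.060 for Pkm, -0.19 to 0.22 for Ldha, -0.045 to 0.13 for Rpe and -0.12 to 0.022 for Tkt. Among the other genes named they ranged from -0.035 to 0.060 for Bsg, -0.0072 to 0.035 for Emb, -0.0077 to 0.063 for Gpd1, -0.031 to 0.10 for Gpd1l and -0.035 to 0.13 for Pdhb. Rescaling without crystallins gave -0.011 for Pfkfb2, -0.00036 for Ldha, -0.019 for Bsg and -0.011 for Emb. Limma-voom gave -0.0029 for Ldha and -0.0013 for Bsg, quantile normalization -0.024 for Bsg and -0.0044 for Emb, and median centring -0.0024 for Bsg. The cause was not tested. Depth limits Ldhb, Slc2a3, Pfkfb1, Pfkfb4 and Slc16a1, each with at most 50 reads per library.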
